A study of Homo sapiens with 2 samples.

Results

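The heat shock proteins and chaperonins were taken from the deposited table by gene symbol: the HSP70, HSP110, HSP90 and small heat shock protein families, the J-domain proteins of the DNAJA, DNAJB and DNAJC series, the mitochondrial chaperonin and its lid, and the subunits of the cytosolic chaperonin TRiC (also called CCT). The rule found 80 genes among the 57736 gene entries. They were compared between A549 cells labelled as a TGF-beta induced model of epithelial to mesenchymal transition (EMT) and A549 cells given no treatment. A549 is a lung adenocarcinoma line, its genotype is given as WT in both samples, and the design text names the cells VIM RFP, for vimentin and red fluorescent protein. Each condition was 1 AmpliSeq library, a targeted assay that amplifies chosen segments of transcripts, so no test of the treatment was possible and every interval below covers counting error only. Neither dose nor duration of TGF-beta stands in the sources used here.

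Chaperones bind unfolded or partly folded proteins and keep them from aggregating. HSP70 proteins do this in cycles of ATP hydrolysis that J-domain proteins start and HSP110 proteins reset by nucleotide exchange, while HSP90 acts later on kinases, receptors and other clients. Chaperonins are barrels that enclose a client, HSP60 with its lid HSP10 in mitochondria and TRiC in the cytosol, where actin and tubulin are its best known clients. Small heat shock proteins hold clients without ATP. Many of these genes are switched on by heat shock factor 1 (HSF1) at heat shock elements, and those of the endoplasmic reticulum (ER) by the unfolded protein response.

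Promoters of 6 members are shown because these genes span the range of ratios and both kinds of control. Each is the 250 bases before the RefSeq gene start, build GRCh38.p14, read 5′ to 3′ on the gene's strand. Capitals mark TTCNNGAA and GAANNTTC, the pairs of inverted units from which a heat shock element is built, and the ER stress element, in which CCAAT and CCACG stand 9 bases apart. Both strands were searched and overlapping matches were allowed.
HSPA1A (chr6:31815293-31815542, plus strand): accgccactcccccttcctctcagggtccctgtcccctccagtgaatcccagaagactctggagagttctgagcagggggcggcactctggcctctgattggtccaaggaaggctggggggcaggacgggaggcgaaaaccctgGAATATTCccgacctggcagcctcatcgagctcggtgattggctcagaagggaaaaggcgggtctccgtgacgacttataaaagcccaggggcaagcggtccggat
HSPA6 (chr1:161524290-161524539, plus strand): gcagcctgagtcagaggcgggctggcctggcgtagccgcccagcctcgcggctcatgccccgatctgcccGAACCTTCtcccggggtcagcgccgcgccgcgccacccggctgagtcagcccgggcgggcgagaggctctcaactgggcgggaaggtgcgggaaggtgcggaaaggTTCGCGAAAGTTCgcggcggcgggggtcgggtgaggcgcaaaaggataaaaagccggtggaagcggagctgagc
HSPD1 (chr2:197499841-197500090, minus strand): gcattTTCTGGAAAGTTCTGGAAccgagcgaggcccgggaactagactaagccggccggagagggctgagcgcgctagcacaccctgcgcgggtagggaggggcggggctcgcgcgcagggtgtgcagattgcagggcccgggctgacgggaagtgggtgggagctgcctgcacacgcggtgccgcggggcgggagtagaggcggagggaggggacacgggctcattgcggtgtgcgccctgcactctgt
HSPA8 (chr11:123062137-123062386, minus strand): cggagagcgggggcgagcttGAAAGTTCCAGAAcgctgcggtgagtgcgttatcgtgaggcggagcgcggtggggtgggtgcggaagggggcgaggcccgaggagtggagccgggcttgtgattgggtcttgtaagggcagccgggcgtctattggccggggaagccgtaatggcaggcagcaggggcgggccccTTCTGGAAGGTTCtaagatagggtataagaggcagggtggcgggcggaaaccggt
HSPA5 (chr9:125241344-125241593, minus strand): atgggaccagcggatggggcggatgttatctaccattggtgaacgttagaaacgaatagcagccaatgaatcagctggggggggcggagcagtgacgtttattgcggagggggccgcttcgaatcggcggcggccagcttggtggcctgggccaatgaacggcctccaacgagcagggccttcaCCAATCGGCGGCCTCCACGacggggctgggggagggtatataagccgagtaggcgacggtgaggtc
HSPH1 (chr13:31162389-31162638, minus strand): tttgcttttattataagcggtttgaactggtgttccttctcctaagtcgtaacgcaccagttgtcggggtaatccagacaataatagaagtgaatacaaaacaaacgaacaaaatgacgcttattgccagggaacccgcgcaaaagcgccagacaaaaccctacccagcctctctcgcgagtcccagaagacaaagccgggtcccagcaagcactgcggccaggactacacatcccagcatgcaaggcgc
HSPA6 held overlapping pairs that make up 1 stretch of 3 consecutive units, HSPA8 held 2 such stretches, and HSPD1 held 4 consecutive units. HSPA1A held 1 GAANNTTC, HSPA5 held 1 ER stress element and no heat shock pair, and HSPH1 held none of these letters in its window. Of the 80 members, 70 had a promoter in the RefSeq table. A heat shock pair on either strand was found in 22 of them (31.4%), against 14.0% of all 27305 genes in that table. The longer pattern, in which both kinds of pair overlap to give 3 units, was found in 6 of the 70 (8.57%), against 0.557% of all genes, and the ER stress element in 2 (2.86%), against 0.0916%. A gene with several start sites, such as HSPD1, of which 1 of 2 windows is shown, was counted if any window matched. The pair GAANNTTC and the pattern of 3 units were added to the search after the data were seen.

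The TGF-beta sample held 597133 counts and the untreated sample 674784, after rounding of the deposited estimates. Only 1965 genes in the TGF-beta sample and 3157 in the untreated sample had at least 20 counts, and 43.7% and 32.7% of these libraries lay in their 10 largest genes. A marker gene went against the label: vimentin (VIM), which EMT raises, had 56 counts in the TGF-beta sample and 452 in the untreated sample. Of the epithelial genes, which EMT lowers, KRT8 went with the label. It had 16 counts in the TGF-beta sample against 53 in the untreated sample (log2 ratio -1.39, -2.30 to -0.56). The other epithelial genes were sparse and within counting error. CDH1 had 4 and 1 counts in these libraries, EPCAM 7 and 4, and KRT18 0 and 3. The markers were thus mixed. The glycolytic enzyme GAPDH, often used as a loading control, had 115 counts in the TGF-beta sample against 2764 in the untreated sample, a log2 ratio of -4.25 that is as low as those of many chaperones. Neither library quality nor an exchange of the labels, which would turn every direction given here, was tested, and "TGF-beta sample" means the library so labelled throughout. Counts depend on which segments of a gene were amplified, so they are compared between samples, and levels are not compared between genes.

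The 80 members together held 751 counts in the TGF-beta sample and 3346 in the untreated sample. This was 0.126% of the TGF-beta sample (0.117% to 0.135%, exact 95% binomial interval), against 0.496% of the untreated sample (0.479% to 0.513%). Fewer cells that express a gene and less of its RNA per cell cannot be told apart in such a bulk measurement. A member entered the comparison with at least 5 CPM (counts scaled to a common library total) in 1 library, and 62 of the 80 did. Of these 62, 34 were lower by 2-fold or more in the TGF-beta sample and 6 higher by as much. Over all 15401 genes that passed the same filter 26.7% were that much lower and 22.0% that much higher. The median log2 ratio of the TGF-beta sample over the untreated sample was -1.33 for these members and 0.01 for all genes tested. The 6 higher members were HSPH1, HSPA1L, HSPB7, DNAJC2, DNAJC6 and DNAJC21, of which HSPH1 alone was beyond counting error. HSPA1L and DNAJC6 each had 3 counts in the TGF-beta sample and 1 in the untreated sample, too few for a ratio of their own. They are among 5 of the 62 with 3 counts or fewer in both libraries. With more than 3 counts required in 1 library, 34 of 57 members were lower and 4 higher, against 29.2% and 21.3% of 14067 genes. The median was then -1.66, against -0.08 over all those genes.

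The counting interval of the ratio lay below 0 for 34 members, against 16.8% of all genes tested, and above 0 for 2, against 9.99%. With a minimum of 20 CPM in 1 library 26 of 37 members were at least 2-fold lower, against 36.0% of 5341 genes, and 2 were higher, against 18.5%. The same shares were taken within bands of mean level. At a mean of 100 CPM or more, 4 of 6 members were at least 2-fold lower, against 26.1% of 742 genes. Between 20 and 100 CPM 16 of 24 were lower, against 30.7% of 3156 genes, and between 5 and 20 CPM 14 of 26 were lower, against 30.4% of 8201 genes. The direction rests on scaling to the bulk of the expressed genes. Scaling on the summed counts of ribosomal protein genes, an alternative chosen after the data were seen, moved every log2 ratio up by 3.51 and put the members' median at 2.26 with 50 of 71 at least 2-fold higher. That scaling also put 94.3% of all 22300 genes then tested at least 2-fold higher, with a median of 3.26.

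**Figure D1:**
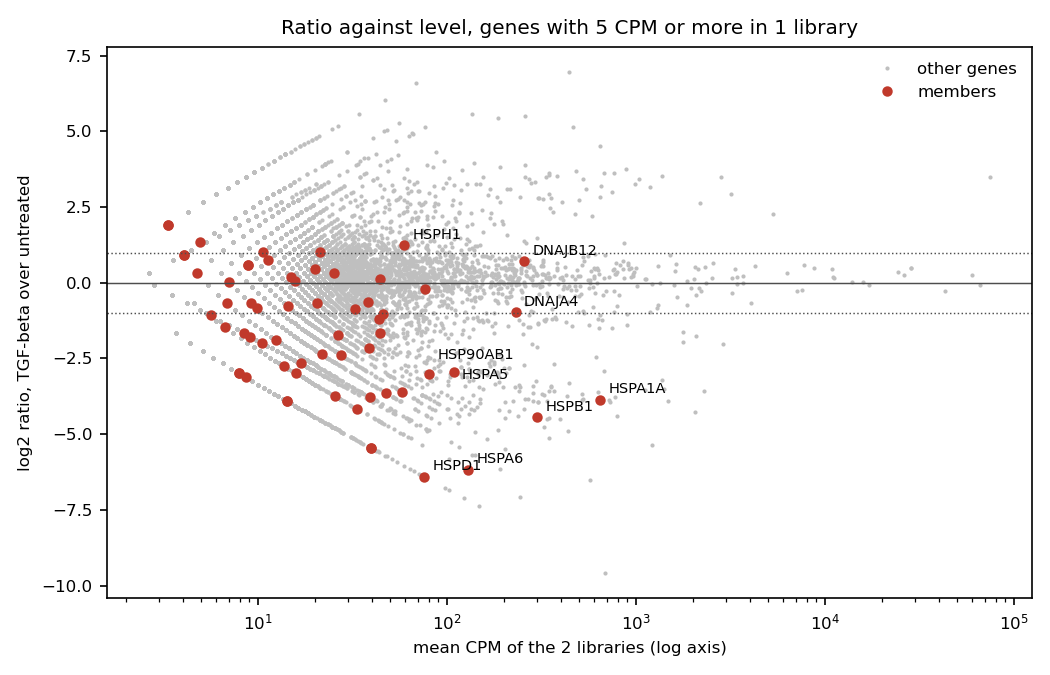
Log2 ratio of the TGF-beta sample over the untreated sample (vertical axis) against the mean CPM of both libraries (horizontal log axis) for the 15401 genes with at least 5 CPM in 1 library. Members are red and other genes grey, dotted lines mark 2-fold, and of the 6 members with a mean of 100 CPM or more HSPA1A, HSPA5, HSPA6 and HSPB1 lie below the lower line.

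HSP70 genes showed the largest difference in counts. The 13 genes held 106 counts in the TGF-beta sample against 1437 in the untreated sample, and the log2 ratio of the sums was -3.43 (95% counting interval -3.72 to -3.14). Of the 12 that passed the filter 9 were at least 2-fold lower and 1 higher, beside 26.7% and 22.0% of all genes tested. The 1 counted as higher, the testis gene HSPA1L, whose exons overlap HSPA1A on the opposite strand, had 3 counts in the TGF-beta sample and 1 in the untreated sample.

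The stress-inducible cytosolic HSP70 genes gave most of the class's counts in the untreated sample. HSPA1A (hg19 chr6:31783291-31785723, plus strand; all gene positions below are hg19) had 47 counts in the TGF-beta sample and 860 in the untreated sample, that is 83.2 and 1206 CPM. Its log2 ratio was -3.86 (-4.31 to -3.43). HSPA1B, a near-identical neighbour whose reads cannot be firmly divided from those of HSPA1A, had 0 counts in the TGF-beta sample and 24 in the untreated sample, at least 6.34-fold lower with the 0 set to a floor of 3 counts per library. Such a bound is not the end of the counting interval, which reached up to a log2 ratio of -2.25 for HSPA1B. HSPA6 (chr1:161494036-161496681, plus strand), an HSP70 gene expressed almost only under stress, had 2 counts in the TGF-beta sample against 182 in the untreated sample and a log2 ratio of -6.17 (-9.23 to -4.30). The untreated sample thus held an inducible HSP70 transcript that was nearly absent from the other library. HSPA7, a copy of HSPA6 regarded as a pseudogene, had 8 counts in the TGF-beta sample and 45 in the untreated sample, with a log2 ratio of -2.16 (-3.45 to -1.06). HSPA6 and HSPA7 share sequence, so the split between them is uncertain.

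The constitutive and organelle HSP70 genes HSPA8, HSPA5 and HSPA9 were lower too. HSPA8, the constitutive cytosolic form that also uncoats clathrin vesicles, had 1 count in the TGF-beta sample and 55 in the untreated sample, and its log2 ratio was -5.45 (-10.78 to -2.91). HSPA8 has 17 pseudogene entries in the table, with 8 counts in the TGF-beta sample and 3 in the untreated sample, and with these added the log2 ratio was -2.35. HSPA5 (BiP), the HSP70 of the ER, had 14 counts in the TGF-beta sample and 137 in the untreated sample, for a log2 ratio of -2.95 (-3.86 to -2.16). HSPA9 (mortalin), the motor of mitochondrial protein import, had 4 counts in the TGF-beta sample against 63 in the untreated sample, and its log2 ratio was -3.64 (-5.56 to -2.21). The counting intervals of these 3 genes lay below 0. HSPA2, best known from spermatogenesis, had 12 counts in the TGF-beta sample and 48 in the untreated sample, the mildest of the 8 named HSP70 ratios at -1.66 (-2.71 to -0.73).

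Within the HSP70 class, a comparison that needs no scaling between libraries, HSPA1A and HSPA1B made up 44.3% of counts in the TGF-beta sample (exact interval 34.7% to 54.3%) and 61.5% in the untreated sample (58.9% to 64.0%). HSPA2 made up 11.3% in the TGF-beta sample (5.99% to 18.9%) and 3.34% in the untreated sample (2.47% to 4.40%). HSPA5 made up 13.2% (7.41% to 21.2%) in the TGF-beta sample and 9.53% (8.06% to 11.2%) in the untreated sample, intervals that overlap. The members of the class were therefore not all low by the same factor. The other 5 genes of the class had 1 to 8 counts in the TGF-beta sample and 0 to 9 in the untreated sample, and their differences were within counting error, that of HSPA12A, at least 2-fold lower with 2 counts in the TGF-beta sample against 7 in the untreated sample, included.

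HSP110 genes, the nucleotide exchange factors of HSP70, did not move together. HSPH1 (HSP105; chr13:31710762-31736525, minus strand) had 47 counts in the TGF-beta sample and 25 in the untreated sample, with a log2 ratio of 1.25 (0.52 to 2.01). HSPA4 (APG-2) had 2 counts in the TGF-beta sample and 34 in the untreated sample, with a log2 ratio of -3.75 (-6.85 to -1.79). HSPA4L had 6 counts in the TGF-beta sample and 13 in the untreated sample, within counting error. HSPH1 was thus 85.5% of the class in the TGF-beta sample (73.3% to 93.5%) and 34.7% in the untreated sample (23.9% to 46.9%). HSPH1 was the only named member at least 2-fold higher. That ratio rested on counts in a single exon block (defined below), and in the next block HSPH1 was lower.

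All 3 HSP90 genes were at least 2-fold lower, beside 26.7% of all genes tested. HSP90AB1, the constitutive cytosolic form, had 10 counts in the TGF-beta sample and 102 in the untreated sample, with a log2 ratio of -3.01 (-4.12 to -2.08). HSP90B1 (GRP94), the HSP90 of the ER, had 5 counts in the TGF-beta sample and 76 in the untreated sample, with a log2 ratio of -3.59 (-5.25 to -2.30). HSP90AA1, the inducible cytosolic form, had 0 counts in the TGF-beta sample and 12 in the untreated sample, at least 3.17-fold lower at the floor (interval up to -1.14). The class as a whole had 15 counts in the TGF-beta sample against 190 in the untreated sample, a log2 ratio of -3.33 (-4.19 to -2.57), close to that of the HSP70 class with overlapping intervals.

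**Figure D2:**
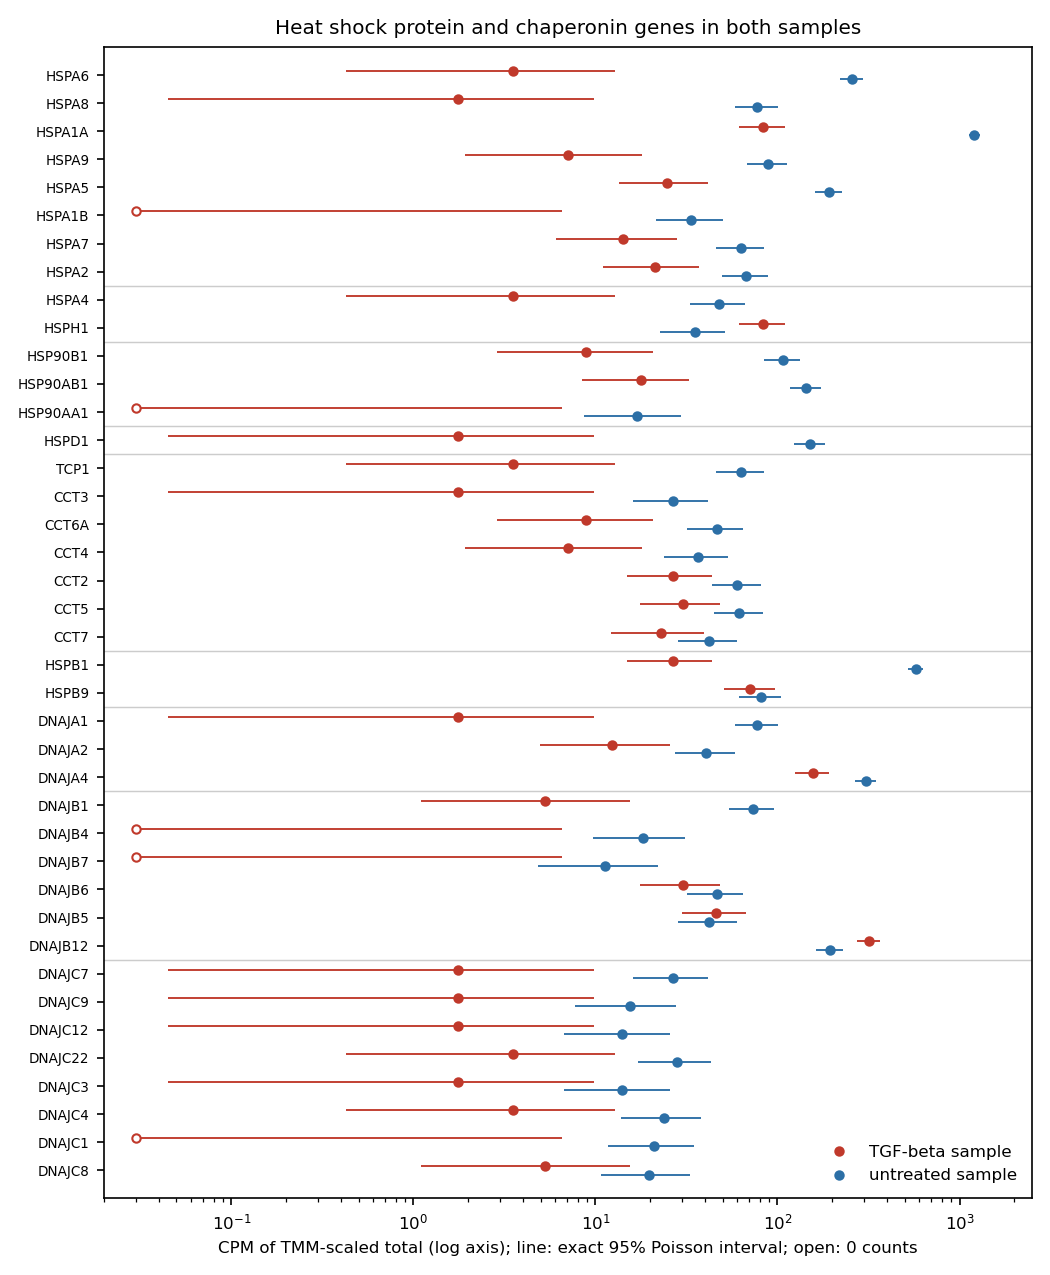
CPM of the 40 named members (horizontal log axis) in the TGF-beta sample (red) and the untreated sample (blue), with exact 95% Poisson intervals, grouped by class in the order HSP70, HSP110, HSP90, mitochondrial chaperonin, TRiC, small HSP, DNAJA, DNAJB and DNAJC. Open circles at the left edge are 0 counts, and HSPA1A has the widest gap in CPM, at 83.2 in the TGF-beta sample and 1206 in the untreated sample.

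The mitochondrial chaperonin HSPD1 (HSP60; chr2:198351305-198381461, minus strand) had 1 count in the TGF-beta sample and 107 in the untreated sample, and its log2 ratio of -6.41 (-11.72 to -3.90) was the lowest of all members with a ratio. HSPD1 has 15 pseudogene entries, with 6 counts in the TGF-beta sample and 21 in the untreated sample, and with these added the log2 ratio was -3.86. Its lid HSPE1 (HSP10), encoded head to head with HSPD1, had 1 count in the TGF-beta sample and 2 in the untreated sample, so nothing can be said of the lid. Both genes overlap in the deposited coordinates on opposite strands, and whether counting used strand is not stated in the sources used here.

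TRiC subunits were lower by degrees. The complex has 8 different subunits in each ring, and all passed the filter, CCT8 with too few counts for a ratio. By the 2-fold rule 6 were lower and none higher, beside 26.7% and 22.0% of all genes tested. Their summed counts were 60 in the TGF-beta sample and 243 in the untreated sample, a log2 ratio of -1.68 (-2.11 to -1.27) that lay above that of HSP70 with no overlap of intervals. TCP1 (subunit alpha; chr6:160199530-160210781, minus strand) had 2 counts in the TGF-beta sample and 45 in the untreated sample, the lowest of the subunits at -4.16 (-7.25 to -2.22). CCT3 followed with 1 count in the TGF-beta sample against 19 in the untreated sample and -3.91 (-9.29 to -1.26). CCT6A had 5 counts in the TGF-beta sample and 33 in the untreated sample (-2.39, -4.10 to -1.02). These neighbours in the order did not differ beyond their counting intervals.

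The other subunits lay between these and equality. CCT4 had 4 counts in the TGF-beta sample and 26 in the untreated sample (-2.36, -4.34 to -0.84). CCT2 had 15 counts in the TGF-beta sample and 43 in the untreated sample (-1.18, -2.14 to -0.31). CCT5 had 17 counts in the TGF-beta sample and 44 in the untreated sample (-1.04, -1.94 to -0.20), and with its 2 pseudogene entries added it was at -0.45, inside 2-fold. CCT7 had 13 counts in the TGF-beta sample and 30 in the untreated sample (-0.87, -1.93 to 0.11), within counting error. CCT8 had 3 counts in each library. By gene totals, subunits of 1 ring, present in equal number in the assembled complex, differed in ratio. TCP1 was below CCT2, CCT5 and CCT7 by intervals that do not overlap. For CCT2 and CCT7, however, the counts of both libraries lay mostly in different exons, as given below, and the part of this in the difference was not tested.

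**Figure D3:**
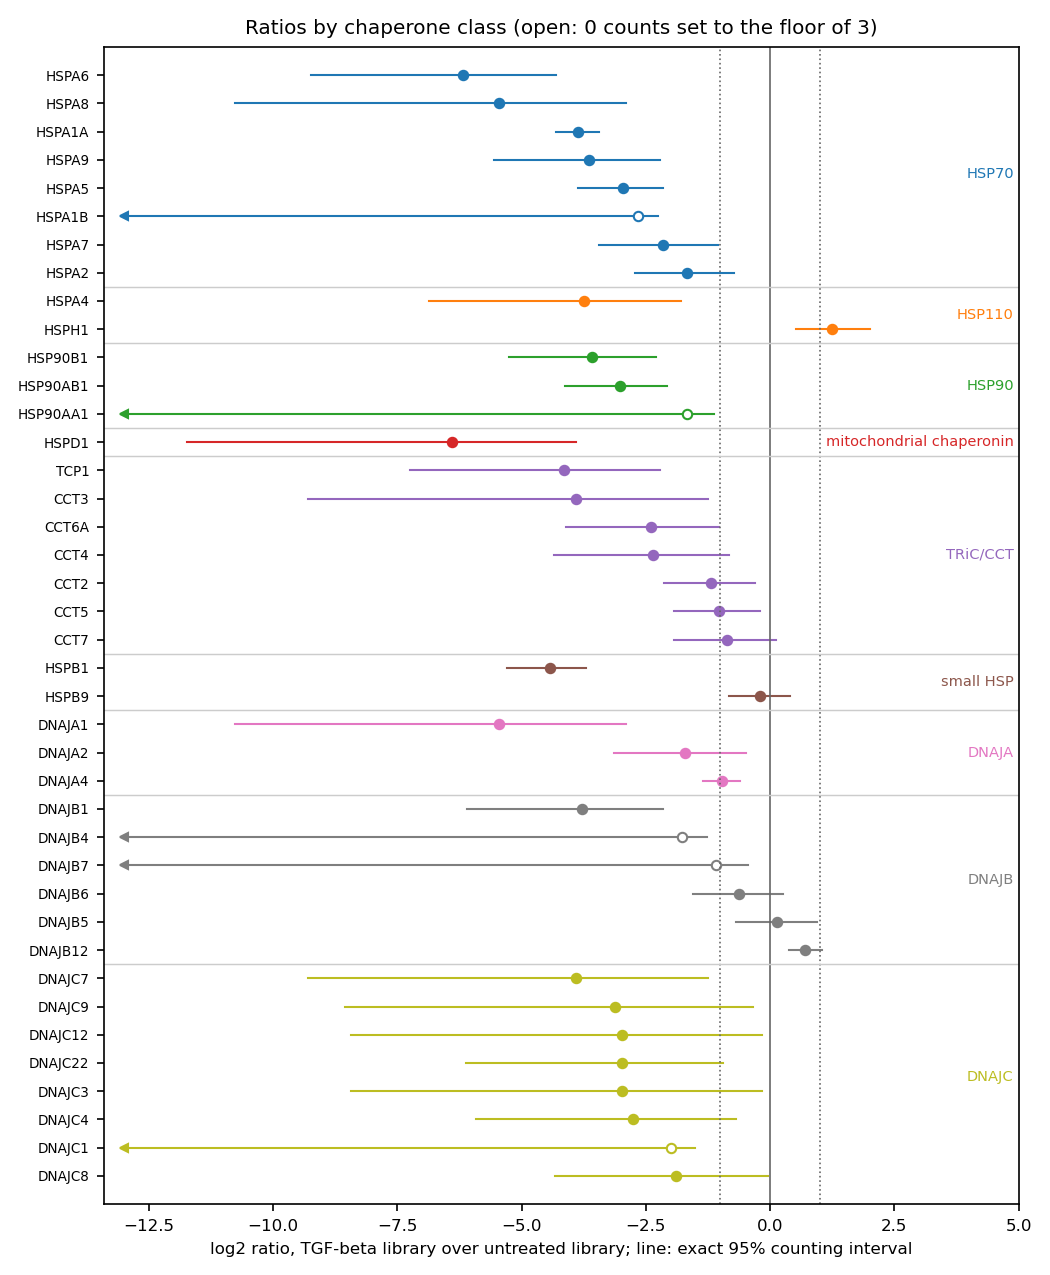
Log2 ratio of the TGF-beta sample over the untreated sample for the 40 named members, by class, with exact 95% counting intervals. Open circles are 0 counts in the TGF-beta sample set to the floor of 3, whose intervals have no lower end, dotted lines mark 2-fold, and HSPH1 and DNAJB12 are the 2 genes whose interval lies above 0.

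Of the small heat shock proteins 1 gene was far lower and the others were not. HSPB1 (HSP27; plus strand at chr7:75931861-75933612), the main small heat shock protein of epithelial cells and an actin-associated stress protein, had 15 counts in the TGF-beta sample and 409 in the untreated sample, for a log2 ratio of -4.43 (-5.28 to -3.69). HSPB9, a testis gene, had 40 counts in the TGF-beta sample and 58 in the untreated sample, and its log2 ratio of -0.20 (-0.82 to 0.41) included equality. HSPB1 was therefore 16.0% of the class in the TGF-beta sample (9.22% to 25.0%) and 81.5% in the untreated sample (77.8% to 84.8%). The other 6 genes had 0 to 16 counts in the TGF-beta sample and 0 to 12 in the untreated sample, and none was beyond counting error.

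J-domain proteins were less one-sided. The 43 genes held 419 counts in the TGF-beta sample and 793 in the untreated sample, a log2 ratio of -0.58 (-0.76 to -0.41), while the 37 other members had 332 in the TGF-beta sample against 2553 in the untreated sample and -2.61 (-2.78 to -2.44). Among the 30 J-domain genes tested 13 were at least 2-fold lower and 3 higher, and among the 32 others 21 were lower and 3 higher, beside 26.7% lower and 22.0% higher of all genes tested. The smaller difference of the J-domain sum rests in part on DNAJB12, which gave 179 of its counts in the TGF-beta sample and 138 in the untreated sample. Without DNAJB12, an alternative added after the data were seen, the sums were 240 counts in the TGF-beta sample and 655 in the untreated sample, a log2 ratio of -1.11 (-1.33 to -0.90). With it, J-domain genes made up 55.8% of all members' counts in the TGF-beta sample (52.2% to 59.4%) and 23.7% in the untreated sample (22.3% to 25.2%).

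The DNAJA and DNAJB co-chaperones of cytosolic HSP70 included some of the lowest ratios. DNAJA1 had 1 count in the TGF-beta sample and 55 in the untreated sample, with a log2 ratio of -5.45 (-10.78 to -2.91), and with its 6 pseudogene entries added it was at -4.06. DNAJB1 (HSP40), the main inducible partner of HSP70, had 3 counts in the TGF-beta sample and 52 in the untreated sample, with a log2 ratio of -3.78 (-6.10 to -2.15). DNAJA2 had 7 counts in the TGF-beta sample and 29 in the untreated sample (-1.71, -3.15 to -0.49). These 3 partners of cytosolic HSP70 were at least 2-fold lower, while others, among them DNAJB5, DNAJB6 and HSPH1, were not. DNAJB4 had 0 counts in the TGF-beta sample and 13 in the untreated sample, at least 3.43-fold lower at the floor (interval up to -1.27). DNAJB7, a gene of the testis, had 0 counts in the TGF-beta sample and 8 in the untreated sample, at least 2.11-fold lower at the floor (interval up to -0.44). Its single exon overlaps XPNPEP3 on the opposite strand, so these few reads are uncertain.

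Other named DNAJA and DNAJB genes lay inside 2-fold. DNAJB12 (chr10:74092588-74114988, minus strand), an ER membrane protein that works with cytosolic HSP70 in the degradation of misfolded membrane proteins, had 179 counts in the TGF-beta sample and 138 in the untreated sample, with a log2 ratio of 0.71 (0.38 to 1.04), inside 2-fold. DNAJA4 had 88 counts in the TGF-beta sample and 218 in the untreated sample, and its log2 ratio of -0.97 (-1.35 to -0.61) lay just inside 2-fold and beyond it with DESeq2 size factors or total counts. DNAJA4 overlaps WDR61 on the opposite strand, which had 217 counts in the TGF-beta sample and 622 in the untreated sample, but the exons that held most DNAJA4 counts do not overlap counted exons of another gene. DNAJB5 had 26 counts in the TGF-beta sample and 30 in the untreated sample (0.13, -0.69 to 0.94). DNAJB6, a suppressor of polyglutamine aggregation, had 17 counts in the TGF-beta sample and 33 in the untreated sample (-0.62, -1.56 to 0.26). DNAJB12 alone held 74.3% of DNAJB counts in the TGF-beta sample (68.3% to 79.7%) and 46.8% in the untreated sample (41.0% to 52.7%). Summed over its 13 genes the DNAJB class had a log2 ratio of 0.04 (-0.21 to 0.29). Of its 9 tested genes 3 were at least 2-fold lower, a share near the 26.7% of all genes tested.

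DNAJC genes, a diverse group that ties HSP70 to particular tasks, were sparse. Their 26 members held 73 counts in the TGF-beta sample and 185 in the untreated sample, a log2 ratio of -1.01 (-1.42 to -0.61), and of 17 tested 8 were at least 2-fold lower and 3 higher, beside 26.7% and 22.0% of all genes tested. DNAJC7, whose TPR repeats bind both HSP70 and HSP90, had 1 count in the TGF-beta sample and 19 in the untreated sample (-3.91, -9.29 to -1.26). DNAJC22 had 2 counts in the TGF-beta sample and 20 in the untreated sample (-2.99, -6.13 to -0.94). DNAJC4 had 2 counts in the TGF-beta sample and 17 in the untreated sample (-2.75, -5.91 to -0.68). All 8 lower DNAJC genes had at most 3 counts in the TGF-beta sample.

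The remaining lower DNAJC genes act in separate places. DNAJC1, an ER membrane protein, had 0 counts in the TGF-beta sample and 15 in the untreated sample, at least 3.96-fold lower at the floor (interval up to -1.51). DNAJC3 (P58IPK), an ER protein that restrains the kinase PERK, had 1 count in the TGF-beta sample and 10 in the untreated sample (-2.99, -8.43 to -0.17), as did DNAJC12, a partner of the aromatic amino acid hydroxylases. DNAJC9, a histone chaperone, had 1 count in the TGF-beta sample and 11 in the untreated sample (-3.12, -8.55 to -0.34). DNAJC8, which is associated with the spliceosome, had 3 counts in the TGF-beta sample and 14 in the untreated sample (-1.89, -4.33 to -0.05). The 18 other DNAJC genes had 0 to 16 counts in the TGF-beta sample and 0 to 18 in the untreated sample, each within counting error.

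**Figure D4:**
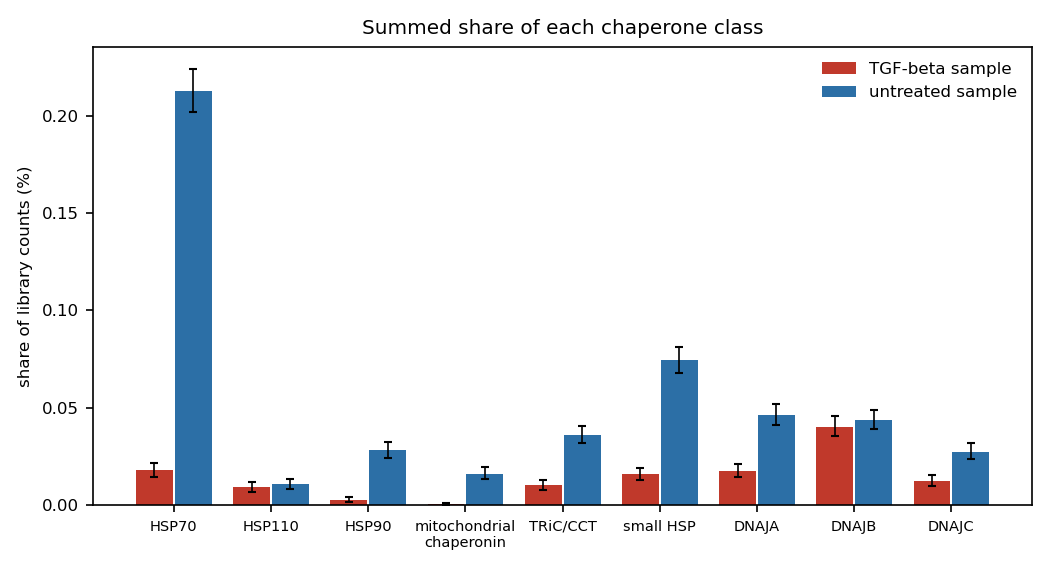
Share of each library's counts (vertical axis, percent) held by each chaperone class in the TGF-beta sample (red) and the untreated sample (blue), with exact 95% binomial intervals. HSP70 shows the widest gap, at 0.0178% of the TGF-beta sample and 0.213% of the untreated sample, while the intervals of HSP110 and DNAJB overlap.

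By compartment, the 45 members of the cytosol and nucleus held 454 counts in the TGF-beta sample and 2647 in the untreated sample, a log2 ratio of -2.21 (-2.35 to -2.06). The 8 mitochondrial members held 28 and 203 counts in these libraries, a log2 ratio of -2.52 (-3.15 to -1.95), but HSPD1 and HSPA9 gave 170 of the 203. Without these 2 genes, an alternative added after the data were seen, the mitochondrial members were at -0.19 (-1.02 to 0.63). Leaving out low genes had to move the sum toward 0, so this value only shows how far the sum rests on HSPD1 and HSPA9. Of all 5 mitochondrial members tested, these 2 were the ones at least 2-fold lower, beside 26.7% of all genes tested, and the median was -0.66. The 15 ER members held 230 and 429 counts, a log2 ratio of -0.56 (-0.80 to -0.33), but DNAJB12 gave 179 of the 230. Without DNAJB12, likewise left out after the data were seen, the ER members were at -2.18 (-2.64 to -1.74). Of the 9 ER members tested 5 were at least 2-fold lower, among them both lumenal chaperones BiP and GRP94, and none was higher by that rule. The shares over all genes tested were 26.7% lower and 22.0% higher. Another 12 members of cilia, vesicles or no certain place held 39 and 67 counts (-0.44, -1.05 to 0.15).

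The counts did not lie in the same exons in both libraries for every member. Overlapping exons of a gene's transcripts were merged into blocks numbered 5′ to 3′. Among 24 members with more than 1 block and at least 20 counts in the untreated sample, the block with the most counts was the same in both libraries for 10. For 7 of the 24 no count of the TGF-beta sample lay in the main block of the untreated sample, but 6 of these 7 had only 1 or 2 counts there. Where both libraries had at least 10 counts, the main block was shared for 13 of 17 members (76.5%), against 82.7% of 3123 genes. Those shares include genes of 1 block. Among genes of more than 1 block it was shared for 11 of 15 members (73.3%), against 80.8% of 2822 genes.

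Some members kept their position closely. DNAJB12 had 97.8% of its TGF-beta counts and 94.9% of its untreated counts in block 2 of 9, and DNAJA4 had 93.2% and 98.1% in block 7. HSP90AB1 had 83.8% of its TGF-beta counts and 88.7% of its untreated counts in the last block. The main block differed in the other 4 of these 17 members, HSPH1, CCT7, CCT2 and DNAJB6, whose ratios should be read with it. HSPH1 had 95.8% of its TGF-beta counts in block 12 but 43.6% of its untreated counts there, with 48.7% in block 13. In block 12 it had 45.3 counts in the TGF-beta sample and 10.8 in the untreated sample. In block 13 it had 0.83 in the TGF-beta sample and 12.1 in the untreated sample, so its higher ratio rested on block 12. CCT7 had 98.8% of its TGF-beta counts in block 9 and none in block 16, which held 58.7% of its untreated counts. CCT2 had 73.3% of its TGF-beta counts in block 1 and 23.3% of its untreated counts there. With that block alone, the block with the most counts over both libraries, its log2 ratio was 0.47. In block 11, its main block in the untreated sample, CCT2 had 2.34 counts in the TGF-beta sample and 18.2 in the untreated sample. DNAJB6, whose counts were spread over 6 blocks, had 46.6% of its TGF-beta counts and 19.8% of its untreated counts in block 15, and with that block alone its log2 ratio was 0.75. For CCT7 the block with the most counts over both libraries was block 16, and its -2.25 there is a bound at the floor. In block 9 CCT7 went the other way, with 13 counts in the TGF-beta sample and 3 in the untreated sample. The part of exon position in these ratios was not tested.

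**Figure D5:**
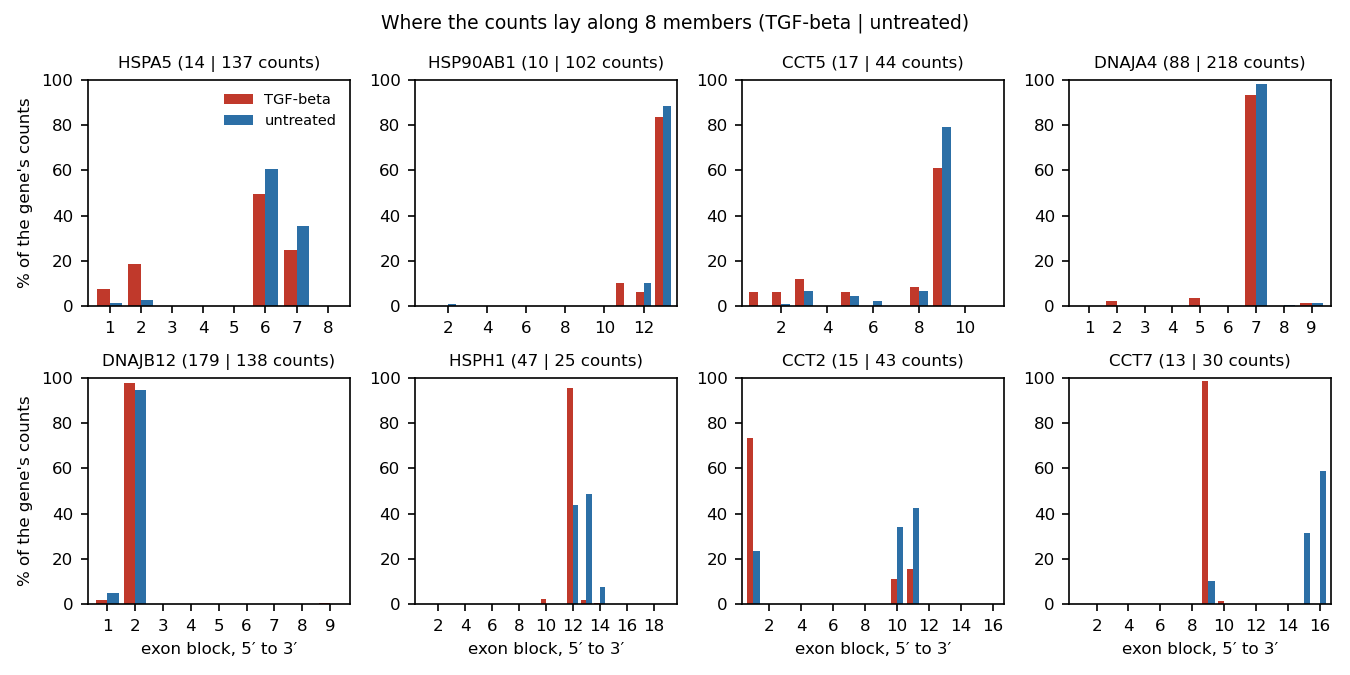
Percent of a gene's counts (vertical axis) in each exon block from 5′ to 3′ (horizontal axis) in the TGF-beta sample (red) and the untreated sample (blue) for 8 members, with the counts of each library in the panel title. HSPA5, HSP90AB1, CCT5, DNAJA4 and DNAJB12 share their main block, while HSPH1, CCT2 and CCT7 do not.

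Other genes of the pathway, outside the rule, were taken as a list of 45 co-chaperones and regulators. Of 35 that passed the filter 19 were at least 2-fold lower and 1 was higher, beside 26.7% and 22.0% of all genes tested. Their median log2 ratio, -1.43, was near that of the members. The list was chosen with earlier results of these data known. HSF1, the regulator of the heat shock genes, had 25 counts in the TGF-beta sample and 32 in the untreated sample, a log2 ratio of -0.02 (-0.84 to 0.78). The HSF1 interval included equality, unlike that of HSPA1A. BAG3, a stress-inducible exchange factor that links HSP70 to autophagy, had 5 counts in the TGF-beta sample and 58 in the untreated sample (-3.20, -4.88 to -1.90). STIP1 (HOP), which bridges HSP70 and HSP90, had 15 counts in the TGF-beta sample and 66 in the untreated sample (-1.80, -2.72 to -0.98).

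Partners of HSP90 and TRiC differed among themselves, and those with at least 50 counts were lower. PTGES3 (p23), which closes the HSP90 cycle, had 0 counts in the TGF-beta sample and 56 in the untreated sample, at least 14.8-fold lower at the floor (interval up to -3.54). FKBP4, a prolyl isomerase of receptor complexes with HSP90, had 6 counts in the TGF-beta sample and 121 in the untreated sample (-4.00, -5.47 to -2.83). PFDN5, a subunit of prefoldin that hands clients to TRiC, had 7 counts in the TGF-beta sample and 119 in the untreated sample (-3.75, -5.10 to -2.66). Another prefoldin subunit, PFDN4, was the 1 higher gene of the list, with 19 counts in the TGF-beta sample and 4 in the untreated sample (2.58, 0.99 to 4.60). Of the other prefoldin subunits PFDN2 and VBP1 were lower. PFDN2 had 0 counts in the TGF-beta sample and 42 in the untreated sample (interval up to -3.11), and VBP1 had 1 and 22 (-4.12, -9.49 to -1.49). PFDN1, with 0 and 5, and PFDN6, with 2 and 1, were within counting error. The kinase co-chaperone CDC37 had 6 counts in the TGF-beta sample and 12 in the untreated sample (-0.66, -2.36 to 0.86), and FKBP5 had 3 and 4, both within counting error. AHSA1, another partner of HSP90, had 0 and 13 counts in these libraries, at least 3.43-fold lower at the floor (interval up to -1.27). In the ER the disulfide isomerase P4HB had 4 counts in the TGF-beta sample and 125 in the untreated sample (-4.63, -6.53 to -3.24), and the lectin CALR had 22 and 299 (-3.43, -4.12 to -2.80). HSPBP1, an exchange factor that also limits HSP70, had 58 counts in the TGF-beta sample and 41 in the untreated sample, the 1 gene of this group with at least 50 counts that was not lower (0.84, 0.23 to 1.45).

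Members with a heat shock pair in the promoter window were set beside those without, as a description. The split was not planned, as GAANNTTC was added to the search after the data were seen. TTCNNGAA, the pair planned, was found in 11 of the 22 members with either pair. Of the 19 tested with a pair 14 were at least 2-fold lower and 1 was higher. Their median log2 ratio was -2.66. Of the 36 tested without a pair 16 were lower and 5 were higher, and the median was -0.66. Over all genes tested, with or without a pair, 26.7% were lower and 22.0% higher, and the shares over all genes with a pair were not taken. The 6 members with at least 3 consecutive units differed widely: HSPD1 was at -6.41, HSPA6 at -6.17, HSPA8 at -5.45, HSP90AB1 at -3.01, HSP90AA1 at a bound of -1.66 and DNAJB6 at -0.62, within counting error. With pseudogene entries added HSPD1 was at -3.86 and HSPA8 at -2.35. HSPA5, with an ER stress element and no heat shock pair, lay among the low members all the same, and a match of letters is not a binding site.

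Little can be said of the sparsest members. Of the 18 that did not pass the filter none had more than 2 counts in the TGF-beta sample or 3 in the untreated sample, and 4 of the 80 had a rounded count of 0 in both. DNAJB11 (ERdj3), DNAJC19 and DNAJC28 were listed at 0 in both libraries. With 0 counts a level of up to 5.31 CPM in the TGF-beta sample and 4.21 CPM in the untreated sample is allowed by the floor of 3 counts. Pseudogene entries of these families held 43 counts in the TGF-beta sample and 70 in the untreated sample over 75 entries, none with 20 counts.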

How the data were processed

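Per the labels' protocols, total RNA was purified on RNeasy columns and 10 ng per library entered the AmpliSeq Transcriptome kit. The authors deposited 1 table of expected counts (estimates with fractions), not normalized, with gene, transcript and exon entries in hg19 coordinates; hg19 and DESeq stand in the submitters' processing notes with no role or version. The sources used here name neither aligner nor counter. Gene entries were rounded to whole numbers, scaled by TMM in edgeR 4.0.16 (R 4.3.3; factor 0.946 for TGF-beta, 1.06 for untreated) and given as CPM. DESeq2 1.42.0 supplied size factors for an alternative. Ratios (TGF-beta over untreated) use no pseudocount. A 0 count was set to a floor of 3, and no single ratio is given where both counts were 3 or fewer. Genes so sparse still entered the medians and the counts of lower and higher genes if they passed the filter. Intervals are exact: 95% Clopper-Pearson for ratios (conditional on the summed count) and shares, Poisson for CPM. Reads here carry no molecular identifiers, and reads from PCR are not independent, hence intervals and floors hold counting error alone. The ratio calculation was tested on simulated data. Protein sequences were not used here. With 1 library per group there is no p-value, and differences have no replicate check. Named members had at least 20 counts in 1 library or a counting interval that excludes equality. Other pathway genes named had at least 50. The exceptions HSF1, PFDN1, PFDN2, PFDN4, PFDN6, VBP1, CDC37, FKBP5 and AHSA1 were chosen after their values were seen. Members, classes and lists were chosen with earlier results of these data known.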

Additional observations from a re-analysis of the deposited data

How the results depend on the processing

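No paired analysis was possible because each group has 1 library, and for the same reason no library could be left out. Of the 34 lower, 6 higher and median of -1.33 among members, the count of lower members was 26 to 41 under the 10 alternatives planned for these counts. The sets differed in size. It was 26 of 37 with the 20 CPM filter, against 36.0% of all genes then tested, and 41 of 76 with a 1 CPM filter, against 27.2%. The alternative with no filter beyond 1 count passed the same genes as the 1 CPM filter, so these 2 are not separate checks. The count of higher members was 2 with DESeq2 size factors and 2 with the 20 CPM filter, under which the median was -2.39. It was 4 to 9 under the other 8. Scaling on ribosomal protein genes gave 4 lower and 50 higher of 71 and a median of 2.26, against a median of 3.26 over all genes then tested. That scaling moves all log2 ratios by 3.51, which turned the direction. Without the 11 genes that rank among the 10 largest of either library, the members' share was 0.228% of the TGF-beta sample and 0.750% of the untreated sample. Among 40 named members, picked in part because their interval excluded 0, 33 were at least 2-fold lower. With DESeq2 size factors and total counts 33 and 33 of them stayed so. Those 2 scalings move every log2 ratio by -0.22 and -0.16, so no lower member could leave the count. Upper quartile scaling, which moves every log2 ratio by 0.08, kept 32. HSPH1 stayed higher under all of these, of which only the 2 that move ratios down could have changed its call. The main exon block alone, that with the most counts over both libraries, was an alternative chosen after the data were seen. With it 30 stayed lower, CCT2 turned to 0.47 and DNAJB6 to 0.75. CCT7 was at a bound of -2.25, with 0 counts of the TGF-beta sample in that block. HSPH1 was at 2.37 on block 12, which its TGF-beta counts made the main block, and it was lower in block 13. Depth limits the sparse members: 3 counts in the TGF-beta sample correspond to 5.31 CPM.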
